A study of Sus scrofa with 4 samples.

Results

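The genes described here are 10 protein-coding genes of the pig mitochondrial genome: ND1, ND2, ND3, ND4, ND5 and ND6 of complex I, CYTB of complex III, and COX1, COX2 and COX3 of complex IV. They were taken by symbol from the 13 mitochondrial protein genes among 29692 gene symbols. ND4L, ATP6 and ATP8 were left out because they overlap their neighbours. Each of the 10 symbols had 1 row, and all 10 were among the 10075 genes that reached 1 FPKM in 2 or more libraries and were tested. FPKM is a fragment count divided by the length of the gene and the size of the library. Muscle had been taken by biopsy from pigs (Sus scrofa) of the Hampshire and the Mali breed, which the series describes as differing in muscularity. There were 2 RNA-sequencing libraries per breed. Age, the muscle sampled, and whether the libraries of a breed came from separate animals are not stated in the labels, so a p-value speaks only of the spread among these libraries. The comparison asks which genes differ between the muscles of these breeds.

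The mitochondrial genome encodes a small set of hydrophobic core subunits of the respiratory chain. The remaining subunits and all protein factors that copy, transcribe and translate it are encoded in the nucleus. Both of its strands are transcribed as long precursors that are cut at the tRNAs lying between most genes, so abundances of the mature mRNAs also depend on processing and stability. Skeletal muscle uses the chain to make ATP, and oxidative fibres hold more mitochondria than glycolytic fibres.

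The libraries were of skeletal muscle by their markers. Skeletal actin (ACTA1) measured 40576 and 46329 FPKM in the Hampshire libraries and 20637 and 25480 FPKM in the Mali libraries, whereas the heart marker NPPB was at 0 in all 4 libraries and cardiac troponin I (TNNI3) at no more than 1.54 FPKM. The table holds no counts, so read depth is unknown. FPKM summed to between 516463 and 988614 per library, with the highest sum in Hampshire replicate 1 and the lowest in Mali replicate 1. In tissue samples, fewer cells of a type and less RNA per cell cannot be told apart.

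All 10 genes had their highest level in Hampshire replicate 1, and 9 had their lowest in Mali replicate 1. Among all tested genes, 17.5% were highest in the first of these libraries and 25.2% lowest in the second. The 10 genes are transcribed as parts of long precursors and are not independent of each other. The summed level of the 10 genes was 285745 and 106386 FPKM in Hampshire and 73472 and 111404 FPKM in Mali. Hampshire replicate 1 stood apart from the other libraries, while Hampshire replicate 2 lay between the Mali libraries. The breed means were 196066 ± 126826 and 92438 ± 26822 FPKM (SD, n = 2 each). The spread within Hampshire was thus larger than the difference between the breeds.

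Shares of the library depended on what was counted in the total. The 10 genes took 28.9% and 14.1% of the FPKM sum in Hampshire and 14.2% and 12.5% in Mali, a narrow overlap. In Hampshire the mean was 21.5% ± 10.5 and in Mali 13.3% ± 1.26 (SD, n = 2 each). The difference was 8.15 percentage points with all libraries, 0.73 without Hampshire replicate 1 and 15.6 without Hampshire replicate 2. With ND4L, ATP6 and ATP8 taken out of the total, the shares were 33.5% and 15.2% in Hampshire and 15.0% and 13.1% in Mali. There the breeds did not overlap, by a margin as narrow as that overlap. Nor did they, again narrowly, as a ratio to the FPKM outside the mitochondrial genome, at 0.503 and 0.179 in Hampshire and 0.176 and 0.150 in Mali. All 13 mitochondrial protein genes took 42.5% and 21.3% of the FPKM sum in Hampshire and 19.4% and 17.1% in Mali, again without overlap. That last separation depended on ATP8, whose level is uncertain because it overlaps ATP6. ATP8 measured 31463 FPKM in Hampshire replicate 2 and 18.5 FPKM in Mali replicate 1, and without it the breeds would overlap. In each of these shares and ratios, Hampshire replicate 2 was nearer to both Mali libraries than to Hampshire replicate 1. Complex IV genes took 17.1% of Hampshire replicate 1 and between 7.09% and 8.89% of the other libraries. Complex I genes took 9.52% there and between 4.12% and 4.72% elsewhere, and CYTB 2.33% there and between 0.933% and 1.06% elsewhere. FPKM outside the mitochondrial genome summed to 568166 and 594945 in Hampshire and to 416468 and 741692 in Mali; the lowest and the highest sum were both Mali.

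**Figure D1:**
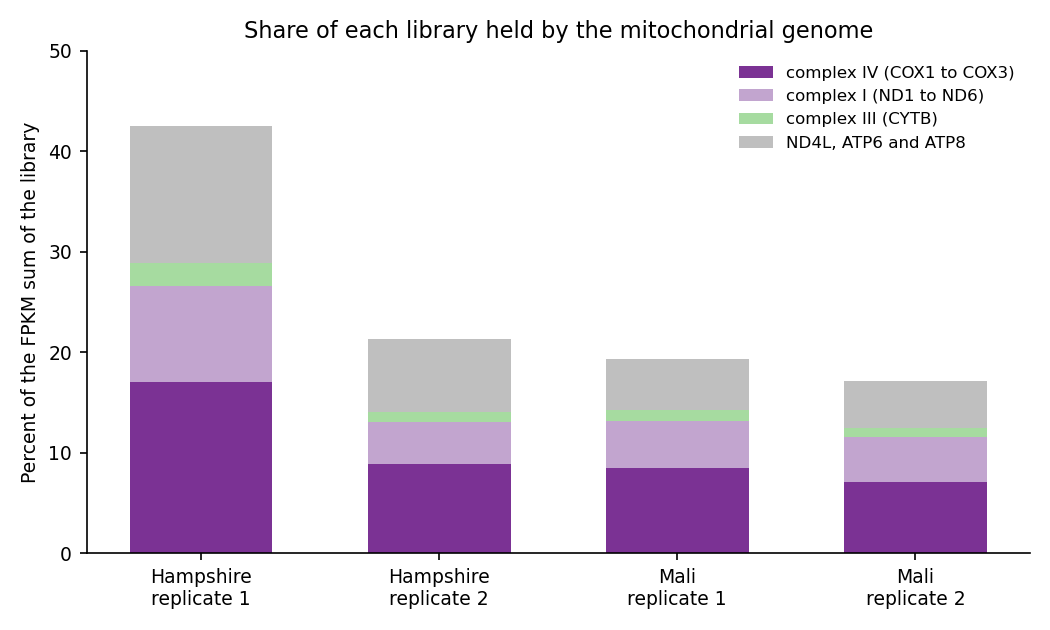
Percent of each library's FPKM sum (vertical axis) taken by the mitochondrial complex IV, complex I and complex III genes and by the 3 genes left out, in the 4 libraries (horizontal axis); each bar is 1 library. The 3 coloured segments add to 28.9% in Hampshire replicate 1 and to between 12.5% and 14.2% in the other libraries.

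Complex I takes electrons from NADH, and its mitochondrial subunits form the proton-pumping membrane arm. ND1, at the junction of this arm with the nuclear-encoded peripheral arm, measured 15979 and 4095 FPKM in the Hampshire libraries and 1536 and 2713 FPKM in the Mali libraries. Both Hampshire libraries lay above both Mali libraries, and the fold between the Hampshire libraries was 3.902. Its log2 difference, Hampshire minus Mali on log2(FPKM + 1), was 1.99 with a standard error of 0.82 and a 95% interval from 0.050 to 3.92. ND1 was the 1 gene of the 10 with an unadjusted p under 0.05 in limma, which 7.09% of all tested genes had in either direction and 4.29% as higher in Hampshire. Its adjusted p was 0.697.

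ND2, an antiporter-like subunit of the membrane arm, measured 18845 and 5524 FPKM in the Hampshire libraries and 2995 and 5015 FPKM in the Mali libraries. The breeds did not overlap, but Hampshire replicate 2 exceeded Mali replicate 2 by a ratio of only 1.10. ND4, another antiporter-like subunit, measured 12551 and 4078 FPKM in the Hampshire libraries and 6287 and 6845 FPKM in the Mali libraries. For ND4 the highest and the lowest library were both Hampshire. ND5, the antiporter-like subunit at the far end of the membrane arm, measured 6219 and 3819 FPKM in the Hampshire libraries and 2065 and 3998 FPKM in the Mali libraries. It had the smallest fold between the Hampshire libraries, 1.63.

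ND3, a small subunit near the junction of the arms, measured 24450 and 8850 FPKM in the Hampshire libraries and 7849 and 15975 FPKM in the Mali libraries. Hampshire replicate 2 lay between the Mali libraries. ND6, the 1 gene of the 10 on the minus strand, measured 16064 and 4772 FPKM in the Hampshire libraries and 3650 and 5107 FPKM in the Mali libraries, again with Hampshire replicate 2 between the Mali libraries. ND6 was above ND5 in each library, with ND5 to ND6 ratios of 0.387 and 0.80 in Hampshire and 0.566 and 0.783 in Mali. These genes overlap by 17 bases on opposite strands, and no strand setting of the counting was found in the labels, so reads from either strand cannot be told apart.

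Complex III passes electrons from ubiquinol to cytochrome c, and CYTB encodes its only mitochondrial subunit, cytochrome b. CYTB measured 23047 and 8036 FPKM in the Hampshire libraries and 5420 and 8351 FPKM in the Mali libraries. Hampshire replicate 2 and Mali replicate 2 differed by a ratio of 0.962. Among the 10 genes, CYTB followed their mean profile most closely, with a root mean square difference of 0.0251 on the centred log2 scale. ND1 was the farthest, at 0.535. Each of the 10 genes is part of that mean, so some closeness to it is built in.

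Complex IV reduces oxygen, and COX1, COX2 and COX3 form its catalytic core, with the heme and copper centres in COX1 and COX2. COX1 measured 40836 and 17072 FPKM in the Hampshire libraries and 12639 and 14383 FPKM in the Mali libraries, without overlap. COX2 measured 55082 and 22992 FPKM in the Hampshire libraries and 10247 and 23330 FPKM in the Mali libraries, and Hampshire replicate 2 fell just under Mali replicate 2. COX3 measured 72673 and 27148 FPKM in the Hampshire libraries and 20784 and 25687 FPKM in the Mali libraries, without overlap. COX3 was the highest of the 10 genes in every library.

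**Figure D2:**
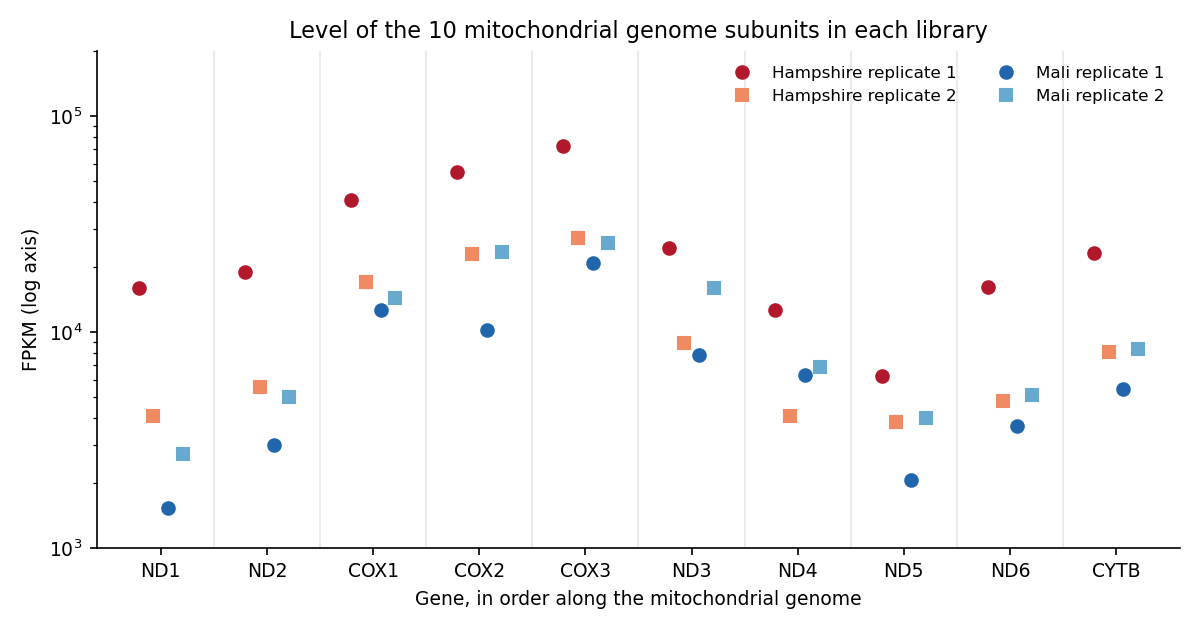
FPKM (vertical log axis) of the 10 genes in genome order (horizontal axis); each point is 1 library, red for Hampshire and blue for Mali, with circles for replicate 1 and squares for replicate 2. The red circle of Hampshire replicate 1 is highest for every gene, from 6219 FPKM for ND5 to 72673 for COX3, while Hampshire replicate 2 lies between the Mali libraries for 5 genes and below both for ND4.

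The levels rest on a compact genome, and 4 of the 10 genes were not alone in the region to which the deposited table assigned them. In the Sscrofa11.1 RefSeq annotation, whose start and end all 10 genes shared, ND1 lies at 3922 to 4876 on MT, ND2 at 5087 to 6128, COX1 at 6511 to 8055 and COX2 at 8203 to 8890. These 4 genes, with ND3 at 10653 to 10998 and CYTB at 15342 to 16481, each had a region of their own. COX3 at 9800 to 10583 shared a region with ATP6 and ATP8 and overlaps ATP6 by 1 base. ND4 at 11359 to 12736 shared one with ND4L and overlaps it by 7 bases, and ND5 at 12935 to 14755 shared one with ND6 at 14739 to 15266. The 6 genes alone in their region took 18.0% and 8.80% of the FPKM sum in Hampshire and 7.88% and 7.80% in Mali. Their shares did not overlap between the breeds; Hampshire replicate 2 lay far nearer to the Mali libraries than to Hampshire replicate 1. Mammalian nuclear genomes hold copies of mitochondrial DNA, and the labels do not say how reads matching both were assigned.

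No breed difference passed the test for any of the 10 genes. With limma and Benjamini-Hochberg adjustment over all tested genes, adjusted p ranged from 0.697 for ND1 to 0.990 for ND4, and among all genes 0 of 10075 passed, while 714 had an unadjusted p under 0.05. All 10 log2 differences were positive, where 39.5% of all tested genes had a positive one, and their median was 0.99 beside -0.12 over all genes. These 10 signs are not independent, as the genes are parts of long precursors and were all highest in Hampshire replicate 1. Other scalings turned some of the differences: ND4 was negative after rescaling to a common FPKM sum, and COX3, ND3 and ND4 were with quantile normalization. The standard errors ran from 0.68 to 0.82 and the differences from 0.13 for ND4 to 1.99 for ND1, and only the 95% interval of ND1 left out 0. For ND4, with a log2 difference of 0.13, the interval ran from -1.64 to 1.89.

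Both Hampshire libraries lay above both Mali libraries for 4 of the 10 genes, ND1, ND2, COX1 and COX3, and for 13.0% of the tested genes. The reverse, with Hampshire below, was found for none of the 10 and for 23.6% of the tested genes. The median log2 difference was 1.71 without Hampshire replicate 2. Without Hampshire replicate 1 it was 0.30, 8 of the 10 differences were positive, and they ranged from -0.69 for ND4 to 1.004 for ND1. Hampshire replicate 1 exceeded the next highest library by 1.53-fold for ND3 up to 3.902-fold for ND1. A ratio of at least the lower of these was found in 3.78% of all tested genes. That cut was taken from the 10 genes themselves, so all 10 meet it by construction and the percentage does not test them. The other Hampshire library was above Mali replicate 2 for 4 genes and below it for 6.

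**Figure D3:**
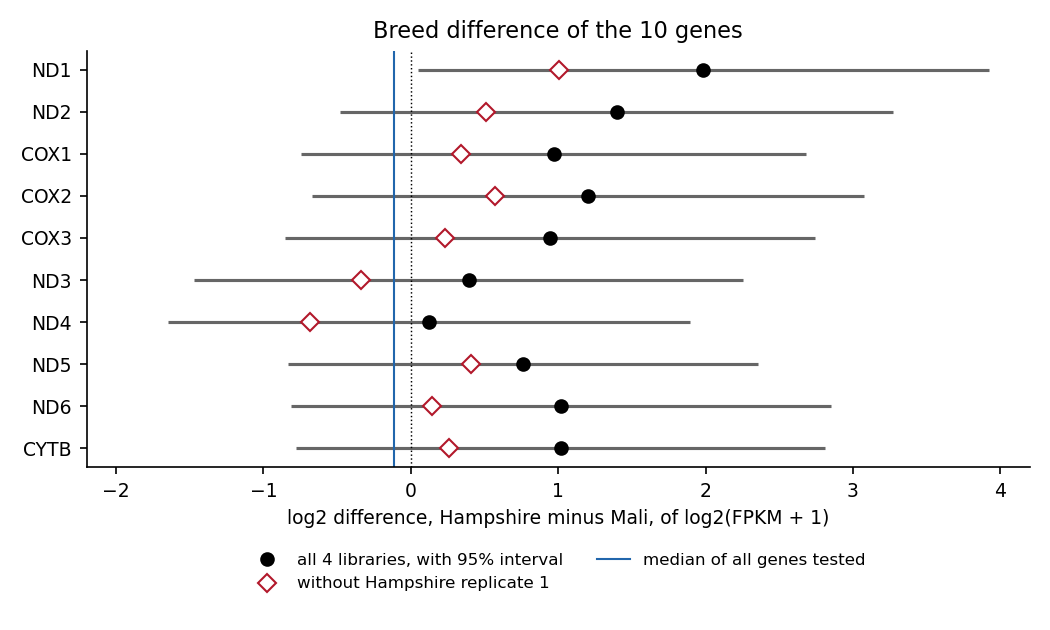
Breed difference of each gene on the log2(FPKM + 1) scale (horizontal axis, Hampshire minus Mali; genes on the vertical axis). Filled points with 95% intervals from limma use 2 libraries per breed, open diamonds leave out Hampshire replicate 1, and the blue line is the median of all genes tested (-0.12); the diamonds lie to the left of the points for all 10 genes and below 0 for ND3 and ND4.

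The authors' deposited table also called none of the 10 genes, where it called 0.215% of 30212 rows significant. In the authors' deposited table the lowest q-value among them was 0.747 for ND1, with a log2 fold change of 2.24 and a p-value of 0.0696. The other 9 had q-values from 0.926 for ND2 to 0.999 in the authors' deposited table.

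The order of the 10 genes within a library differed little from library to library. COX3 led in all 4 libraries and COX2 or COX1 came next. Of the 45 pairs of genes, 37 stood in the same order in all 4 libraries. The Hampshire libraries had all 45 pairs in the same order, the Mali libraries 42, and a Hampshire and a Mali library 38 or 39. The lowest gene was ND5 in both Hampshire libraries, at 6219 and 3819 FPKM, and ND1 in both Mali libraries, at 1536 and 2713 FPKM. From the lowest to the highest gene the levels spanned 11.7-fold and 7.11-fold in Hampshire and 13.5-fold and 9.47-fold in Mali.

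Neighbours in this order often differed by less than the spread between libraries. COX1 and COX2 changed places in Mali replicate 1, where COX1 was at 12639 and COX2 at 10247 FPKM. ND6 and ND2 stood at 16064 and 18845 FPKM in Hampshire replicate 1, and their order was the opposite in both Mali libraries. All 10 genes ranked among the 50 highest of their library, and the lowest of them held rank 26 and 31 in Hampshire and 39 and 43 in Mali.

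Shares among the 10 genes do not depend on how a library is scaled, and here the breeds separated for 5 genes. ND1 made up 5.59% and 3.85% of the summed FPKM of the 10 genes in Hampshire and 2.09% and 2.44% in Mali. ND2 made up 6.60% and 5.19% in Hampshire and 4.08% and 4.50% in Mali. CYTB made up 8.07% and 7.55% in Hampshire and 7.38% and 7.50% in Mali, a separation of under 0.1 percentage points. These 3 genes were higher in both Hampshire libraries.

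ND3 and ND4 were lower in both. ND3 made up 8.56% and 8.32% of the 10 genes in Hampshire and 10.7% and 14.3% in Mali. ND4 made up 4.39% and 3.83% in Hampshire and 8.56% and 6.14% in Mali. Relative to the same 10-gene sum, 1.41% of all tested genes were higher in both Hampshire libraries and 49.4% were lower in both. Among the 10 genes a fall in some shares must be met by a rise in others, unlike for other genes. These percentages are thus not a like background for the 10 genes. With 2 libraries per breed the smallest two-sided p of an exact permutation test is 0.333, so no separation of this kind can pass 0.05. The number of separated genes was 8 without Hampshire replicate 1 or without Mali replicate 2, since fewer libraries then need to separate.

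**Figure D4:**
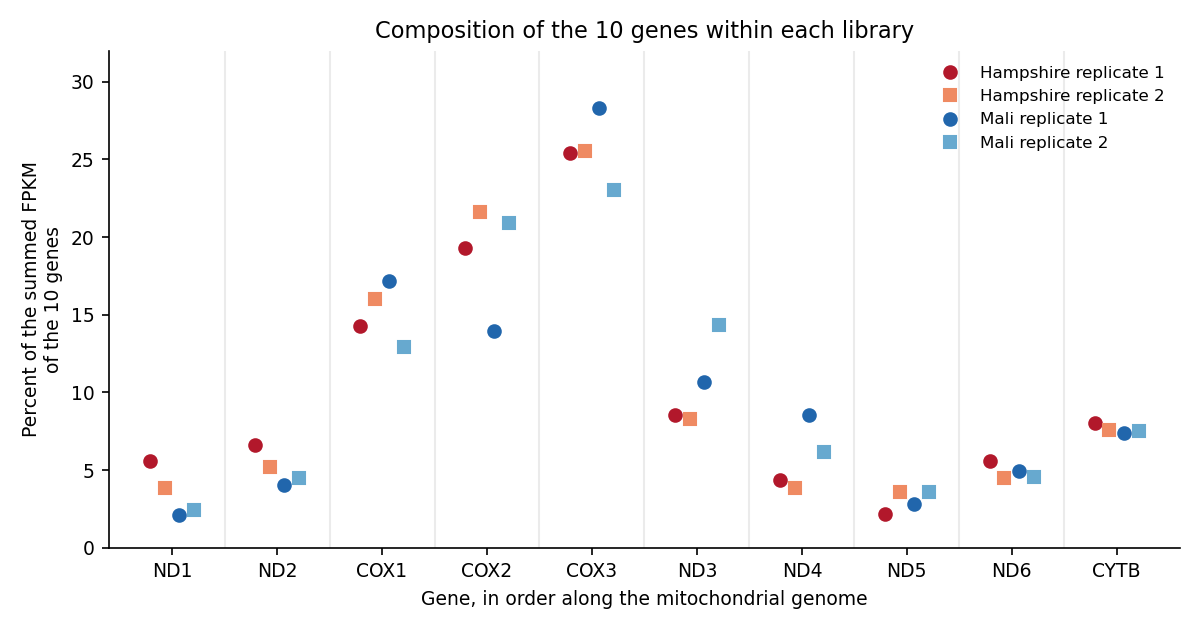
Percent of the summed FPKM of the 10 genes contributed by each gene (vertical axis), genes in genome order (horizontal axis); each point is 1 library, red for Hampshire and blue for Mali. ND1 lies at 5.59% and 3.85% in Hampshire and at 2.09% and 2.44% in Mali, while ND4 lies at 4.39% and 3.83% against 8.56% and 6.14%.

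The widest gap in such ratios, among genes alone in their region, was between ND1 and ND3, a pair chosen after its values were seen. The ND1 to ND3 ratio was 0.654 and 0.463 in Hampshire and 0.196 and 0.170 in Mali. Between ND1 and ND4, which shares its region with ND4L, the ratio was 1.27 and 1.004 in Hampshire and 0.244 and 0.396 in Mali. Each Hampshire ratio exceeded each Mali ratio in both pairs. Of the 45 ratios between the 10 genes, 25 did not overlap between the breeds, and 10 of the 15 ratios between genes alone in their region did not. Among all pairs of the 10046 tested genes above 0 FPKM in every library, 35.1% of ratios did not overlap; the 45 ratios share genes and are not independent. Relative to ND3, 2.81% of all tested genes were higher in both Hampshire libraries, and 0.427% were so by at least the gap of ND1. Because ND1 and ND3 were picked for the width of their gap, these percentages do not test it.

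By complex, complex IV genes made up 59.0% and 63.2% of the 10 genes in Hampshire and 59.4% and 56.9% in Mali. Complex I genes made up 32.9% and 29.3% in Hampshire and 33.2% and 35.6% in Mali, so that the Hampshire libraries were lower without overlap. The opposite shifts of ND1 and ND2 against ND3 and ND4 thus lay within complex I.

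The nuclear subunits of the same complexes did not follow this pattern. Of 62 listed symbols, 48 were in the table and tested, and the other 14 were not analysed here. Of the 48, 43 were highest in Mali replicate 2, where 33.3% of all tested genes were, and 4 were highest in Hampshire replicate 1. With limma 0 of 48 passed adjustment and 0 had an unadjusted p under 0.05, with log2 differences from -0.85 to 0.48 and a median of 0.036. NDUFS7, a core subunit of complex I, measured 202 and 147 FPKM in the Hampshire libraries and 70.6 and 269 FPKM in the Mali libraries. NDUFA7, an accessory subunit, measured 79.7 and 62.6 FPKM in the Hampshire libraries and 76.6 and 214 FPKM in the Mali libraries. COX5B of complex IV measured 445 and 660 FPKM in the Hampshire libraries and 234 and 1594 FPKM in the Mali libraries. The lowest library was Mali replicate 1 for 42 of the 48, as it was for 9 of the 10 mitochondrial genes.

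The ratio of mitochondrial to nuclear subunits was computed within each library, on summed FPKM. For complex I the 6 mitochondrial genes summed to 16.7 and 6.80 times the 37 nuclear genes in Hampshire, and to 8.11 and 4.10 times in Mali. For complex IV the 3 mitochondrial genes summed to 28.9 and 8.39 times the 9 nuclear genes measured in Hampshire, and to 17.3 and 4.10 times in Mali. For complex III, where only UQCRB and UQCR10 of the nuclear subunits were measured, CYTB was at 23.7 and 9.02 times their sum in Hampshire and at 9.20 and 4.56 times in Mali. The breeds overlapped for all 3 complexes, because Hampshire replicate 2 lay below Mali replicate 1. The mean log2 ratio was higher in Hampshire by 0.89 for complex I, 1.17 for complex III and 0.89 for complex IV, with SDs within a breed from 0.70 to 1.47 (n = 2 each). Without Hampshire replicate 1 these differences were 0.24, 0.48 and -0.0058, and without Mali replicate 2 they were 0.39, 0.67 and -0.15. They were larger without Hampshire replicate 2, at 1.54, 1.87 and 1.78, and without Mali replicate 1, at 1.38, 1.68 and 1.93.

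**Figure D5:**
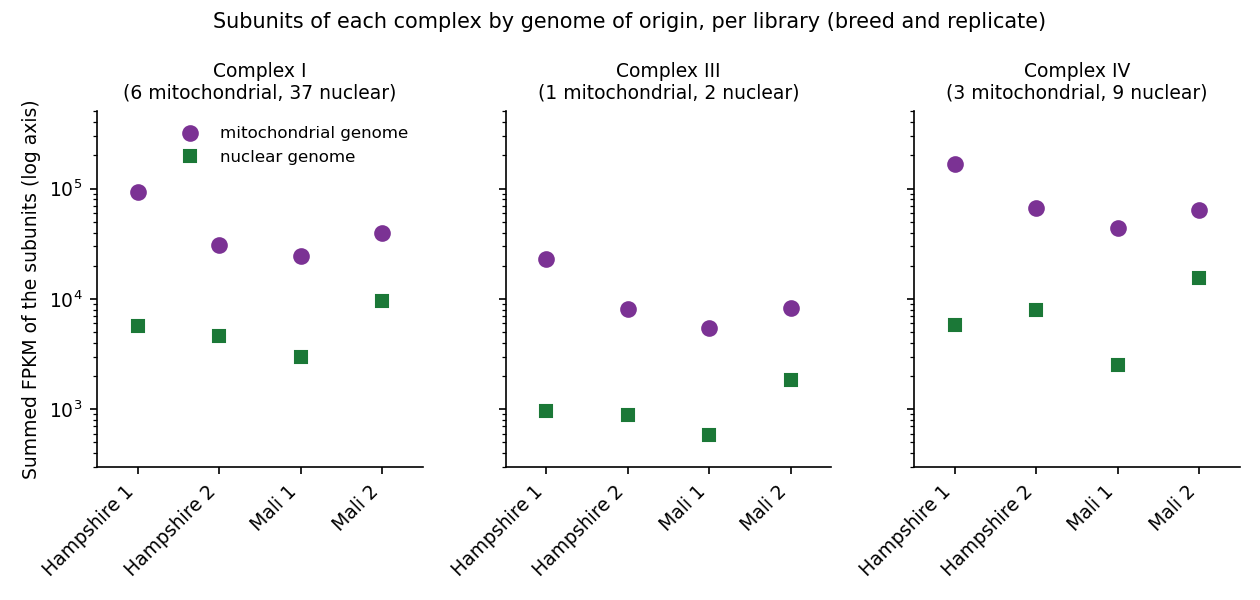
Summed FPKM (vertical log axis) of the mitochondrial (purple circles) and nuclear (green squares) subunits of complexes I, III and IV in each of the 4 libraries (horizontal axis). The mitochondrial sum is highest in Hampshire replicate 1 and the nuclear sum is highest in Mali replicate 2 in all 3 complexes.

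Nuclear genes that maintain, transcribe and process the mitochondrial genome or assemble its products gave no call either. Over 7 lists, 81 of 103 genes were tested, 0 had an adjusted p under 0.05 in limma and 0 an unadjusted p under 0.05. Of the 81, 26 log2 differences were positive, and the median was -0.17 beside -0.12 over all genes. Of these genes, 2 were separated with Hampshire higher, where 13.0% of all tested genes were, and 20 with Hampshire lower, or 24.7% where 23.6% of all tested genes were. TFAM, which packages mitochondrial DNA and starts its transcription, measured 8.58 and 9.25 FPKM in the Hampshire libraries and 11.6 and 21.5 FPKM in the Mali libraries. ELAC2, which cuts the 3′ ends of tRNAs out of the precursors, measured 4.35 and 4.23 FPKM in the Hampshire libraries and 8.64 and 6.22 FPKM in the Mali libraries. MTIF3, an initiation factor of mitochondrial translation, measured 2.76 and 2.46 FPKM in the Hampshire libraries and 4.55 and 5.61 FPKM in the Mali libraries. The breeds did not overlap for these 3 genes, but none passed, with adjusted p in limma from 0.724 to 0.833.

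Nuclear genes with a profile most like the mean of the 10 genes were picked by the smallest root mean square difference of centred log2(FPKM + 1) over the 4 libraries, among 5238 named nuclear genes with a mean of at least 5 FPKM. The closest was ZNF511, a zinc finger gene, with a difference of 0.139 and levels of 30.9 and 8.68 FPKM in Hampshire and 7.23 and 9.52 FPKM in Mali. MYH1, a fast myosin heavy chain, followed at 0.170, with 3868 and 1403 FPKM in Hampshire and 1159 and 1306 FPKM in Mali; its reads may be shared with neighbouring paralogs. YIPF7, IMPA2 and DYRK1B came next, at 0.190, 0.202 and 0.209. With 4 libraries many genes can share a profile by coincidence.

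Fibre type and other cell types differed between the libraries as well. All 8 slow fibre genes had positive log2 differences, with a median of 0.63, and 4 of them were highest in Hampshire replicate 1 and 4 in Mali replicate 2. All 8 were also lowest in Mali replicate 1, as were 25.2% of all tested genes. With limma 0 of the 8 slow fibre genes passed adjustment and 1 had an unadjusted p under 0.05. Their summed level was 6997 and 6488 FPKM in Hampshire and 2760 and 7405 FPKM in Mali. The 9 fast fibre genes had a median of 0.070, with 6 positive and 3 negative differences, from -1.01 for MYH4 to 1.27 for MYH2. MYH4, another fast myosin heavy chain, measured 423 and 5583 FPKM in the Hampshire libraries and 1588 and 6006 FPKM in the Mali libraries. Red blood cell markers summed to 2584 and 3778 FPKM in Hampshire and to 90.1 and 5522 FPKM in Mali, where HBB was at 87.1 FPKM in replicate 1. HBB made up most of each sum, and other markers had another order. ALAS2 and AHSP were highest in Hampshire replicate 1, at 19.8 and 13.4 FPKM, and HBM in Hampshire replicate 2, at 58.8 FPKM. All 4 tested red blood cell markers were lowest in Mali replicate 1. Fibroblast markers summed to 469 and 1408 FPKM in Hampshire and to 103 and 331 FPKM in Mali. Adipocyte markers summed to 74.3 and 335 FPKM in Hampshire and to 112 and 83.1 FPKM in Mali. Most of these sums was FABP4, at 70.1 and 273 FPKM in Hampshire and 108 and 71.3 FPKM in Mali. The other adipocyte markers were each higher in Mali replicate 2 than in Mali replicate 1, with ADIPOQ at 7.84 against 2.31 FPKM. Macrophage markers summed to 41.0 and 75.3 FPKM in Hampshire and to 30.2 and 18.9 FPKM in Mali. Endothelial markers summed to between 36.6 and 69.5 FPKM in the 4 libraries. Of the skin keratins, KRT5 was at 0 in all libraries but Mali replicate 2, and KRT10 was highest there at 16.0 FPKM. Smooth muscle markers had their highest sum in Hampshire replicate 1, at 127 FPKM against 65.1 in the other Hampshire library and 94.0 and 47.2 in Mali. So did the skeletal muscle markers, at 84697 FPKM against 83118 in the other Hampshire library and 44006 and 71821 in Mali. Of these 11 markers, however, 3 were highest in Hampshire replicate 1 and 5 in Mali replicate 2, and ACTA1 was highest in Hampshire replicate 2. The part of fibre types and cell types in the levels of the mitochondrial genes was not tested.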

How the data were processed

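Muscle RNA of 2 Hampshire and 2 Mali libraries was compared, grouped by the breed in the labels; replicates were numbered in accession order. The labels' protocols name Trizol for RNA isolation and a TruSeq kit for the libraries. The submitters' processing notes name HISAT2, Bowtie 0.12.2, Picard and Cuffdiff without their roles, and a build was not found in the labels.

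FPKM per gene and library were deposited by the authors as 1 table of 30213 rows. Per the file headers it also holds breed mean FPKM, a log2 fold change (text where a mean is 0) and, for the authors' own comparison, a p-value, a q-value and a test score; the fold change is Hampshire over Mali. FPKM carries no read depth, and a few abundant genes lower the values of all others. Symbols, starts and ends of the 10 genes matched the RefSeq table of Sscrofa11.1.

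The 1 unnamed row was dropped, 26 symbols that had become dates were read from the gene ID instead, and FPKM were summed over the rows of a symbol (102 symbols had several). The filter kept genes that reached 1 FPKM in 2 or more libraries. log2(FPKM + 1) was tested with limma 3.58.1 in R 4.3.3 (mean-variance trend, two-sided, Benjamini-Hochberg over all genes, threshold 0.05), with 2 residual and 5.24 prior degrees of freedom. Such fold changes understate the change of low genes. The fit was tested on simulated data.

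The genes and lists were chosen with earlier results of these data known, so scores over the 10 genes have no p. From each list, genes named are among the 4 with the lowest unadjusted p, except NPPB and KRT5, untested and named for their values at 0; the nearest 5 nuclear profiles were taken by the rule given with them. The symbols COX6B1, UQCC1 and PRORP were matched to the table's COX6B, UQCC and KIAA0391. The alternatives were other pseudocounts, filters, scalings and limma settings, the highest row per symbol, each library left out, and a block by title suffix. Figures were drawn with matplotlib 3.10.9.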

Additional observations from a re-analysis of the deposited data

How the results depend on the processing

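None of the 10 genes passed adjustment under any of the 16 alternatives, where the lowest adjusted p was 0.160. Of 160 differences, 7 turned negative: ND4 with rescaling to a common FPKM sum (-0.22), quantile normalization (-0.54) and without Hampshire replicate 1 (-0.69), ND3 with quantile normalization (-0.022), without Hampshire replicate 1 (-0.34) and without Mali replicate 1 (-0.12), and COX3 with quantile normalization (-0.033). With a library left out, ND3 ranged from -0.34 to 1.13 and ND4 from -0.69 to 0.936. The median of the 10 genes stayed positive, from 0.30 to 1.71, both with a library left out, and was 0.65 with the common sum and 0.39 with quantile normalization; the 6 genes alone in their region, a choice made after seeing the data, gave 1.11. The median of all genes was -0.12 as deposited and -0.40 with the common sum. The difference in summed log2 level ranged from 0.23 to 1.66, and that in library share from 0.73 to 15.6 percentage points, both with a library left out.

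Counts over all genes moved more. Against 0, limma called 1 gene with a mean of at least 5 FPKM, 68 with the common sum, 63 with the common sum outside the mitochondrial genome and, with libraries left out, 0 to 6. Of the genes in the lists it called 3, 4 and 0 to 1 under the last 3 of these, and the 3 with the common sum were COL1A1, COL1A2 and COL3A1. The shares within the 10 genes did not overlap for 5 genes, and for 7 to 8 with a library left out, where 1 library then stands for a breed and is assumed to vary like the other. With the replicate block by title suffix 261 genes passed, 7 of them in the lists, and with size factors added 57 and 5. These block fits had 1 residual degree of freedom, with 27.4 and 9.28 prior ones. Both common-sum fits had infinite prior degrees of freedom, so the mean-variance trend replaced the spread of each gene. How far the counts rest on this pooling of the spread was not tested. Deviations of libraries with the same suffix correlated at 0.275 over genes, but with 2 pairs this does not show pairing. With no read depth, counting error could not be given.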

Other observations

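The 3 mitochondrial genes left out of the comparison are given here as values, each uncertain because of its overlap with a neighbour. ATP6, a subunit of the ATP synthase, measured 70231 and 14485 FPKM in the Hampshire libraries and 23206 and 17383 FPKM in the Mali libraries, so that Hampshire held both the highest and the lowest library. ND4L, a complex I subunit that overlaps ND4 by 7 bases, measured 6681 and 8974 FPKM in the Hampshire libraries and 3298 and 19251 FPKM in the Mali libraries, with Mali holding both extremes. ATP8, an ATP synthase subunit that overlaps ATP6 by 43 bases, measured 57793 and 31463 FPKM in the Hampshire libraries and 18.5 and 5078 FPKM in the Mali libraries. It was the 1 gene of the 3 whose breeds did not overlap. These 3 genes together took 13.6% and 7.26% of the FPKM sum in Hampshire and 5.14% and 4.66% in Mali.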
